A study of Mus musculus with 12 samples.

Results

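Transcript levels of 9 genes for immune checkpoint ligands were followed in B16F10 cells, a transplantable mouse melanoma line. The genes were taken by symbol from a deposited table of 27503 genes and were Cd274 (PD-L1), Pdcd1lg2 (PD-L2), Cd276 (B7-H3), Vsir (VISTA), Cd47, Pvr (CD155), Lgals9 (galectin-9), Tnfrsf14 (HVEM) and Nt5e (CD73). All 9 were in the table, and 8 of them passed the filter on low counts; Pdcd1lg2 did not. The cells carried the C435A form of IRF7 or its wild-type form, and each form was sequenced with interferon alpha (IFNα) and as a control. The groups were mutant IFNα, mutant control, wild-type IFNα and wild-type control, with 3 libraries each. IRF7 is a transcription factor of the type I interferon response, and C435A replaces a cysteine with alanine. Dose and duration of IFNα, how C435A was introduced and whether a line is 1 clone are not given in the labels. Separate cultures are not stated for the 3 libraries of a group, so a p-value here reflects the spread among those libraries and that spread may be technical.

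Checkpoint ligands are surface or secreted proteins through which a tumor cell restrains the immune cells that touch it. PD-L1 and PD-L2 bind PD-1 on T cells, B7-H3 and VISTA are further B7 family proteins that restrain T cells, and CD47 binds SIRPα on macrophages and blocks engulfment. CD155 is shared by the inhibitory receptor TIGIT and the activating receptor CD226, galectin-9 binds TIM-3, HVEM binds BTLA and CD160, and CD73 makes extracellular adenosine from AMP. PD-L1 is the best known of these as an interferon target: IRF1 acts on its promoter, and CMTM6 protects the protein from degradation.

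Because IFNα acts through the interferon-stimulated response element, promoter windows of 300 bases, 250 before and 50 after each RefSeq start (build GRCm38.p6), were searched for its core GAAANNGAA on both strands. RefSeq windows were matched for 8 of the 9 genes, all except Pvr. The core was present in 3 of these 8 genes, Cd274, Lgals9 and Tnfrsf14, against 9.76% of the 27025 genes with a window (8.56% of all 32851 windows). The gamma-activated site TTCNNNGAA, which is its own reverse complement and shares bases with no core match here, was in 0 of the 8 genes, against 9.55% of all genes (8.3% of all windows). Each match reads TTCNNTTTC in gene direction, so that the core lies on the opposite strand. The 3 windows with a match are shown because they carry the letters that set these genes apart, with the match in capitals. They are chr19:29367188-29367487 (plus strand) for Cd274, chr11:78984875-78985174 (minus strand) for Lgals9 and chr4:154928028-154928327 (minus strand) for Tnfrsf14.
Cd274: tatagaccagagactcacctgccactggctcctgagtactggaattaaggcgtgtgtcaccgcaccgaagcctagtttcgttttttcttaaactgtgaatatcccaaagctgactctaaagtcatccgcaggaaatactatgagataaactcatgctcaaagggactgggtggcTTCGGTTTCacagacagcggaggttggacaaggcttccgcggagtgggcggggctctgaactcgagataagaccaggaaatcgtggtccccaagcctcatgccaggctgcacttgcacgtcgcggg
Lgals9: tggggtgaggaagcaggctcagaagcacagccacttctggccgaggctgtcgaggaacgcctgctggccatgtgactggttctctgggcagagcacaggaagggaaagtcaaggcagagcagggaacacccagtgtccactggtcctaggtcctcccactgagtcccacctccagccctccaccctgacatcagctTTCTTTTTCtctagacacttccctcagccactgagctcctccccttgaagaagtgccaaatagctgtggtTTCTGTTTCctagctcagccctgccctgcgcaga
Tnfrsf14: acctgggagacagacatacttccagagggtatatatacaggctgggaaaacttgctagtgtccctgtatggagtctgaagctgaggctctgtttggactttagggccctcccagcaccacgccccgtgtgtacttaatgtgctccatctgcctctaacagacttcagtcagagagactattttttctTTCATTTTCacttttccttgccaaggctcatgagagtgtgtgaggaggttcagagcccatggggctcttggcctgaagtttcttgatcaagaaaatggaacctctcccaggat
The Cd274 match lay 76 to 68 bases before the start and the Tnfrsf14 match 63 to 55 bases before it. The first bases from each RefSeq start were also sought in transcripts of the same gene in GENCODE, a second annotation. They were found for all matched genes except Cd274 and Cd276, so the Cd274 distances rest on the RefSeq start alone. Lgals9 held 2 matches, 54 to 46 bases before the start and at bases 17 to 25 after it. A match of letters is a description of these windows and not evidence that a factor binds there, and windows without one hold only other letters.

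**Figure D1:**
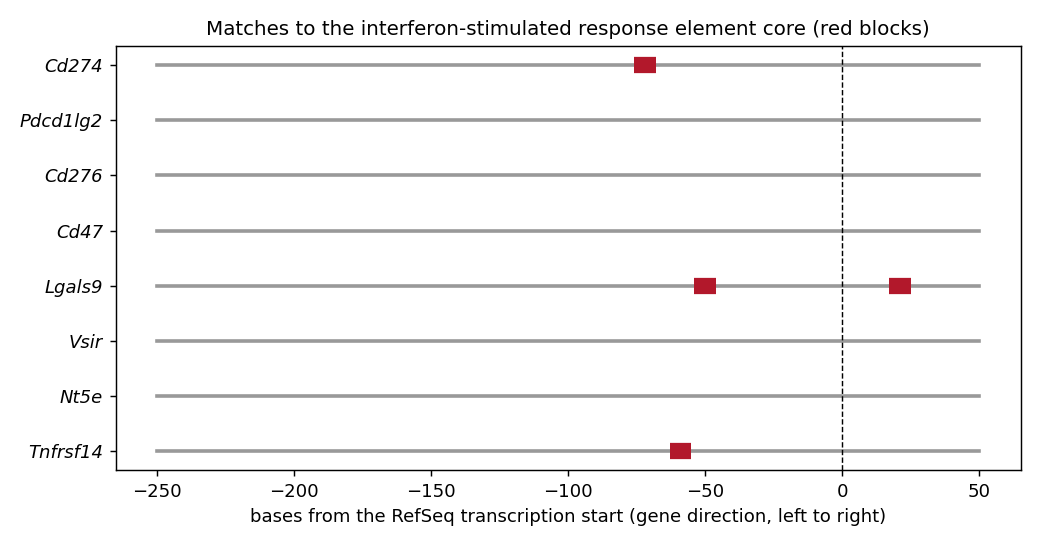
Positions of matches to GAAANNGAA on either strand (red blocks) in the promoter windows of 8 checkpoint ligand genes; the x axis is the distance in bases from the RefSeq start, in gene direction. Cd274 and Tnfrsf14 each have 1 match upstream, Lgals9 has 1 on each side of the start, and the other 5 genes have none.

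The 12 libraries held 60511573 to 75927461 counts. Irf7 mRNA, whose level does not check the C435A change, measured 4.63, 4.69 and 7.23 FPKM in mutant IFNα, 4.99, 4.44 and 5.19 in mutant control, 8.84, 9.87 and 8.45 in wild-type IFNα and 11.6, 12.8 and 12.5 in wild-type control. It was lower in the mutant over both treatments, at a log2 fold change of -0.93 ± 0.119 (standard error, SE; adjusted p = 0.00113). Melanocyte lineage genes such as Pmel and Dct were high in every library, their 7 genes summing to 7021 to 9374 CPM (counts scaled to a common library size). Transcripts of lung epithelium, among them the surfactant gene Sftpc and Scgb1a1, summed to 39.0 to 60.5 CPM in 8 libraries and to at most 0.156 CPM in the other 4. Those 8 were mutant IFNα 3, all mutant control, all wild-type IFNα and wild-type control 1, so lung transcripts divide both the mutant IFNα and the wild-type control group. Results are therefore also given within these 8 libraries and without mutant IFNα 3 and wild-type control 1. Within the 8, mutant IFNα and wild-type control have 1 library each, so the SE there takes that library to vary as the other groups do. The 14 leukocyte markers summed to 99.9 to 134 CPM in mutant IFNα, 151 to 169 in mutant control, 92.9 to 131 in wild-type IFNα and 99.3 to 137 in wild-type control. Among them the macrophage genes Lyz2 (40.1 FPKM) and Cd68 (11.95 FPKM) led, while the T cell gene Cd3e was at 0 in 9 of the 12 libraries. In such bulk libraries fewer cells of a type and less RNA per cell cannot be told apart.

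The ligands covered a wide range of levels, given as FPKM, a value scaled for transcript length and library size. Lgals9 was by far the most abundant, at 118 FPKM on average over the 12 libraries, a level above that of 96.5% of the genes tested. Cd47 followed at 9.60 FPKM, Pvr at 3.57, Cd274 at 2.88 and Cd276 at 1.87. Vsir (0.267 FPKM), Tnfrsf14 (0.232), Nt5e (0.0189) and Pdcd1lg2 (0.0154) were low. Lgals9 exceeded Cd47, Cd47 exceeded Pvr, and Cd276 exceeded Vsir in 12 of 12 libraries. Pvr exceeded Cd274 in 11 libraries and Cd274 exceeded Cd276 in 11, although their ranges overlapped. Vsir was above Tnfrsf14 in 6 of the 12 libraries, so the order of this pair is not resolved. The low end rested on few counts, 59 to 149 per library for Vsir, 0 to 51 for Tnfrsf14, 0 to 27 for Nt5e and 0 to 15 for Pdcd1lg2.

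**Figure D2:**
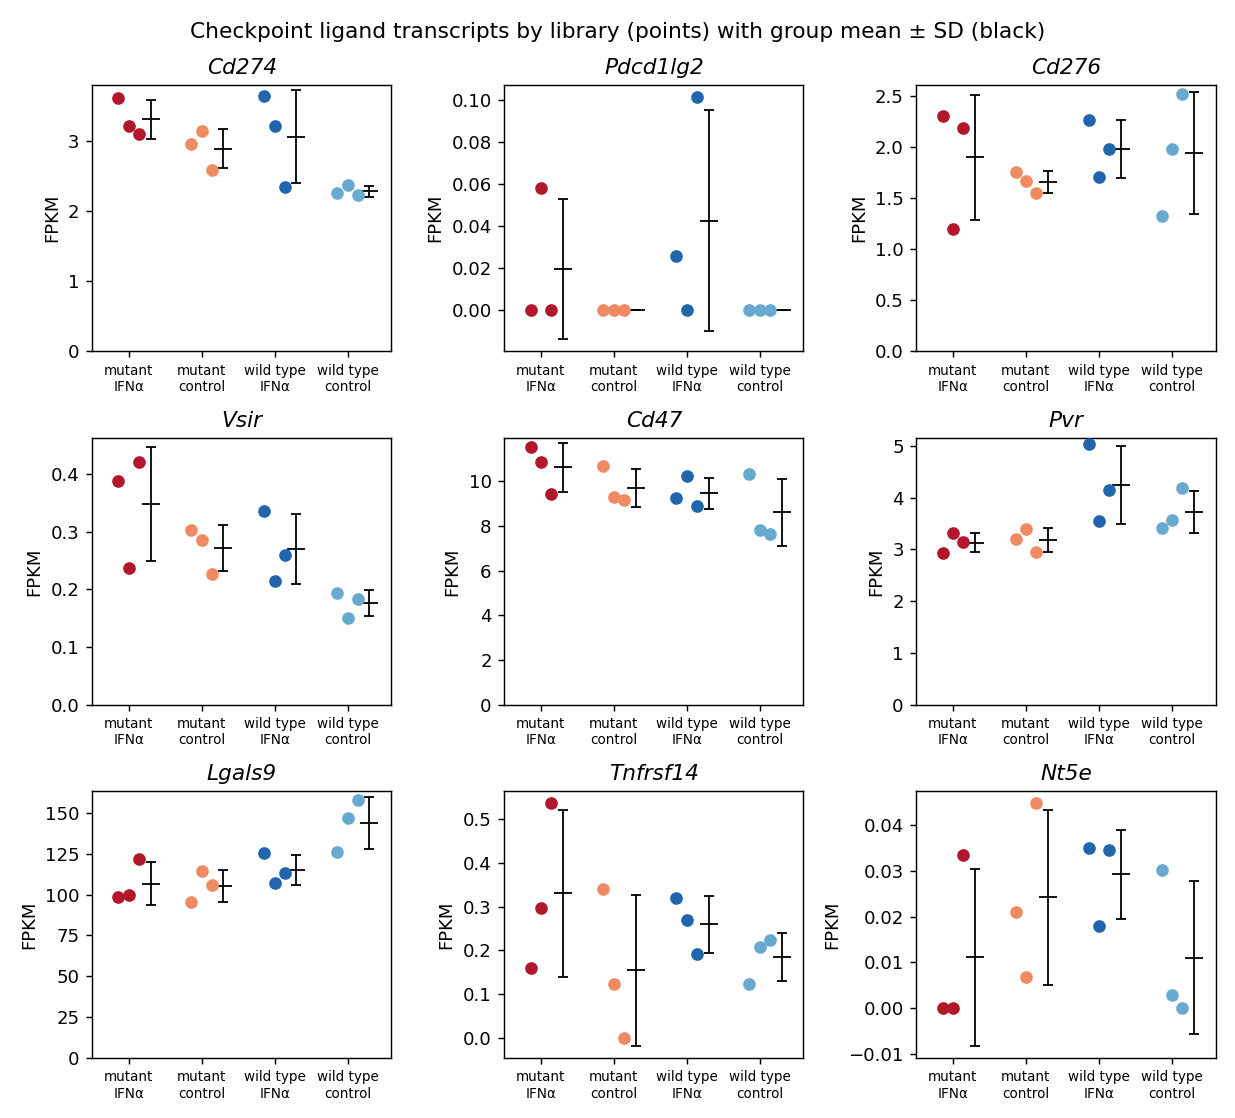
FPKM of the 9 checkpoint ligand genes in each library (points) by group, with the group mean ± SD (black bar, n = 3) beside them; each panel has its own y axis. Cd274 and Vsir are lowest and Lgals9 is highest in wild-type control, and Pvr is lower in both mutant groups than in wild-type IFNα.

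Cd274, on chromosome 19 (29344855 to 29365495 on the plus strand, as deposited), encodes PD-L1. It measured 3.61, 3.21 and 3.09 FPKM in mutant IFNα, 2.94, 3.13 and 2.58 in mutant control, 3.63, 3.20 and 2.34 in wild-type IFNα and 2.25, 2.37 and 2.22 in wild-type control. The wild-type control libraries were the lowest and lay close together, and mutant control lay wholly above them, while wild-type IFNα 3 fell within their range. Group means were 3.30 ± 0.272 FPKM in mutant IFNα, 2.89 ± 0.281 in mutant control, 3.06 ± 0.659 in wild-type IFNα and 2.28 ± 0.0777 in wild-type control (SD, n = 3 each). The IFNα difference (log2 fold change) was 0.17 ± 0.155 (SE) in the mutant and 0.40 ± 0.156 in the wild type, with 95% intervals of -0.16 to 0.50 and 0.063 to 0.73. Adjusted p-values were 0.739 and 0.815, and in the wild type the unadjusted p was 0.0231. Between the lines, mutant control stood 0.44 ± 0.156 above wild-type control (unadjusted p = 0.0142, adjusted p = 0.348) and mutant IFNα 0.21 ± 0.155 above wild-type IFNα (adjusted p = 0.597). Leaving out 1 library at a time gave 0.073 (without wild-type IFNα 3) to 0.29 between the IFNα groups, and 0.098 (without mutant IFNα 1) to 0.23 for IFNα in the mutant. Averaged over treatments the mutant was 1.25-fold higher, with an interval of 1.06 to 1.47 and an adjusted p of 0.133. Every one of these estimates was positive under every setting tried, and none passed the threshold. For IFNα in the wild type the interval ended at 1.66-fold, so a doubling lies outside it.

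The mutant control libraries with the higher Cd274 also had the higher leukocyte sums given above, 151 to 169 CPM against 99.3 to 137 CPM in wild-type control. All of them held lung transcripts, against 1 of 3 wild-type control libraries. Within the lung-holding libraries the Cd274 difference was 0.39 ± 0.232, from 1 wild-type control library. The part of either in the difference was not tested beyond that.

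Pdcd1lg2 encodes PD-L2 and lies 22823 bases downstream of Cd274 in the deposited coordinates. It had 0, 9 and 0 counts in mutant IFNα, 0 in each mutant control library, 4, 0 and 15 in wild-type IFNα and 0 in each wild-type control library. Counts were thus present in 3 of 6 IFNα libraries and in 0 of 6 controls, 28 against 0 in all. If each count were 1 fragment, a count of 0 would allow up to 3 counts per library, 0.0395 to 0.0496 CPM here, for counting error only. Because 33.6% of low counts in the table were multiples of 4, a count is not 1 fragment and the limit may lie above that. The gene was not tested because of the filter; with no filter its adjusted p for IFNα over both lines was 0.539. A930007I19Rik, which overlaps it on the opposite strand, held 57 to 183 counts per library, also where Pdcd1lg2 had 0. Use of strand is not stated, so how reads in the overlap of this pair were assigned is not known.

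Cd276 encodes B7-H3, a B7 family protein that many tumors carry. It measured 2.31, 1.20 and 2.19 FPKM in mutant IFNα, 1.76, 1.67 and 1.55 in mutant control, 2.27, 1.70 and 1.98 in wild-type IFNα and 1.32, 1.98 and 2.52 in wild-type control. All groups overlapped, and the spread within mutant IFNα and within wild-type control was wider than any difference between group means. The IFNα difference was 0.17 ± 0.241 (log2, SE) in the mutant and 0.026 ± 0.240 in the wild type. The interval in the wild type was 0.713-fold to 1.45-fold, so changes within these bounds were not excluded there.

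Vsir encodes VISTA, a B7 family protein found mainly on myeloid cells and resting T cells. It measured 0.388, 0.236 and 0.421 FPKM in mutant IFNα, 0.302, 0.285 and 0.227 in mutant control, 0.336, 0.215 and 0.259 in wild-type IFNα and 0.194, 0.151 and 0.184 in wild-type control. As with Cd274, wild-type control was lowest, and neither wild-type IFNα nor mutant control overlapped it. IFNα gave a log2 fold change of 0.33 ± 0.281 in mutant libraries (adjusted p = 0.727) and 0.58 ± 0.284 in wild-type libraries (adjusted p = 0.941). The mutant value ran from 0.16 without mutant IFNα 3 to 0.55 without mutant IFNα 2. Mutant control exceeded wild-type control by 0.72 ± 0.285, 1.65-fold with an interval of 1.08 to 2.52 (adjusted p = 0.398). Averaged over treatments, the mutant was higher by 0.59 ± 0.200, the smallest adjusted p of any checkpoint ligand in that comparison at 0.130. These values stood beside higher leukocyte sums in mutant control and lung transcripts in all its libraries. Within lung-holding libraries the control difference was 0.52 ± 0.374, from 1 wild-type control library, and the leukocyte markers' part was not tested. The pan-leukocyte gene Ptprc averaged 0.190 FPKM.

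Cd47 encodes the signal that keeps macrophages from engulfing a cell. It measured 11.5, 10.9 and 9.43 FPKM in mutant IFNα, 10.7, 9.30 and 9.14 in mutant control, 9.26, 10.2 and 8.90 in wild-type IFNα and 10.3, 7.84 and 7.65 in wild-type control. Wild-type control 1 stood with the mutant libraries and not with the other 2 of its group, and all groups compared overlapped. The IFNα difference was 0.11 ± 0.150 (log2, SE) in the mutant and 0.12 ± 0.150 in the wild type. The mutant was higher by 0.26 ± 0.150 without IFNα (adjusted p = 0.553) and by 0.25 ± 0.150 with it (adjusted p = 0.495). Averaged over treatments the difference was 0.26 ± 0.106, 1.20-fold, with an adjusted p of 0.214. It was 0.39 ± 0.0855 with an adjusted p of 0.0276 when mutant IFNα 3 and wild-type control 1 were left out, and 0.0185 ± 0.109 within the lung-holding libraries alone. Cd47 was the only ligand gene whose call depended on the libraries used, among the settings tried.

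Pvr encodes CD155, a nectin-like adhesion protein. It measured 2.94, 3.31 and 3.15 FPKM in mutant IFNα, 3.21, 3.39 and 2.94 in mutant control, 5.05, 3.55 and 4.14 in wild-type IFNα and 3.42, 3.57 and 4.18 in wild-type control. Every mutant library lay below every wild-type library in FPKM, but in CPM scaled by TMM only the IFNα groups did not overlap. Mutant IFNα against wild-type IFNα gave a log2 fold change of -0.34 ± 0.115, 0.791-fold with an interval of 0.667 to 0.938 (unadjusted p = 0.0107, adjusted p = 0.204). The control groups differed by -0.12 ± 0.115 (adjusted p = 0.740), and the mean over both treatments by -0.23 ± 0.0813 (adjusted p = 0.149). The IFNα difference was -0.046 ± 0.115 in the mutant and 0.17 ± 0.115 in the wild type. Lung transcripts were held by 1 library of mutant IFNα and all 3 of wild-type IFNα, and within those libraries the IFNα groups differed by -0.32 ± 0.175.

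Lgals9 encodes galectin-9, a secreted lectin. It measured 98.8, 99.8 and 122 FPKM in mutant IFNα, 95.2, 115 and 106 in mutant control, 125, 107 and 113 in wild-type IFNα and 126, 147 and 158 in wild-type control. Wild-type control was the highest group and overlapped neither wild-type IFNα nor mutant control, the nearest libraries being 125 FPKM in wild-type IFNα and 126 FPKM in wild-type control. Its pattern thus ran opposite to that of Cd274 and Vsir, which were lowest in the same libraries. The log2 fold change was -0.33 ± 0.118 for IFNα in the wild type (unadjusted p = 0.0138, adjusted p = 0.759) and -0.0020 ± 0.118 in the mutant. Mutant control differed from wild-type control by -0.35 ± 0.118 (unadjusted p = 0.0111, adjusted p = 0.335), and mutant IFNα from wild-type IFNα by -0.015 ± 0.118. The difference between the IFNα effects of the lines was 0.33 ± 0.167, with an interval of -0.028 to 0.69 and an adjusted p of 0.916. Within lung-holding libraries the wild-type IFNα difference was -0.21 ± 0.135, from 1 wild-type control library. Averaged over treatments the mutant difference was -0.18 ± 0.0837 (adjusted p = 0.273) over all libraries and -0.021 ± 0.0965 within the lung-holding ones.

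Tnfrsf14 encodes HVEM, a receptor that also acts as the ligand of BTLA. It had 18, 33 and 51 counts in mutant IFNα, 32, 12 and 0 in mutant control, 38, 30 and 21 in wild-type IFNα and 14, 23 and 26 in wild-type control. No pair of groups compared was separate. Nt5e encodes CD73 and had 0, 0 and 19 counts in mutant IFNα, 12, 4 and 27 in mutant control, 25, 12 and 23 in wild-type IFNα and 20, 2 and 0 in wild-type control. The SE of the log2 fold change was at least 0.92 for Tnfrsf14 and 1.55 for Nt5e in each comparison of 2 groups, so fold changes are not given for either gene.

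The comparisons were counted over the ligand genes tested and set beside the same count over all 17590 genes. With IFNα in the mutant, edgeR called 0 of 8 ligand genes at an adjusted p under 0.05, against 0.00569% of all genes, and 0 had an unadjusted p under 0.05, against 10.3%. DESeq2 called 0 of 8, against 0.952% of its genes, and limma on log2(FPKM + 1) called 0 of 5, against 0.0297%. None of the 8 had groups without overlap, against 17.7% of all genes. With IFNα in the wild type, edgeR called 0 of 8 (0.0227% of all genes), DESeq2 0 of 8 (0.387%) and limma 0 of 5 (0.0297%). Of the 8, 2 had an unadjusted p under 0.05 (Cd274 and Lgals9; 5.44% of all genes) and 2 did not overlap (Vsir and Lgals9; 12% of all genes).

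Between the controls of the lines, edgeR called 0 of 8 (0.165% of all genes), DESeq2 0 of 8 (1.26%) and limma 0 of 5 (0.347%). Of the 8, 3 had an unadjusted p under 0.05 (10.7% of all genes), and the same 3 genes, Cd274, Vsir and Lgals9, did not overlap (20.3% of all genes). Between the IFNα groups, edgeR called 0 of 8 (0.597%), DESeq2 0 of 7 (4.02%) and limma 0 of 5 (0.555%). Pvr alone had an unadjusted p under 0.05, against 13.7% of all genes, and was the 1 gene without overlap, against 18.4%. At this number of genes a share above or below these backgrounds rests on 1 to 3 genes.

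For IFNα over both lines, edgeR called 0 of 8 (0.171% of all genes), DESeq2 0 of 6 (2.11%) and limma 0 of 5 (0.258%), with 2 at an unadjusted p under 0.05, Cd274 and Vsir (10.2%). For the mutant over both treatments, edgeR called 0 of 8 (2.8%), DESeq2 0 of 8 (7.29%) and limma 0 of 5 (3.93%). There 5 of the 8 had an unadjusted p under 0.05, against 18.1% of all genes: Cd274, Vsir and Cd47 on the higher side, Pvr and Lgals9 on the lower. In the interaction, the IFNα difference in the mutant minus that in the wild type, edgeR called 0 of 8 (0% of all genes), DESeq2 0 of 9 (0.0604%) and limma 0 of 5 (0%). No ligand gene had an unadjusted p under 0.05 there, against 5.17% of all genes, so a difference in IFNα response between the lines was not shown for any of them. These comparisons share control libraries and are not independent of each other. The median log2 fold change over the 8 was 0.14 for IFNα in the mutant and 0.28 in the wild type, beside -0.0072 and 0.016 over all genes. It was 0.077 between the controls and 0.13 between the IFNα groups, beside 0.0049 and -0.014 over all genes. These medians include Tnfrsf14 and Nt5e, whose fold changes are not given because of their SE. For IFNα in the wild type both lay above the median, while in the mutant Tnfrsf14 lay above it and Nt5e below. The gap between 0.14 and 0.28 may therefore rest on these genes.

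**Figure D3:**
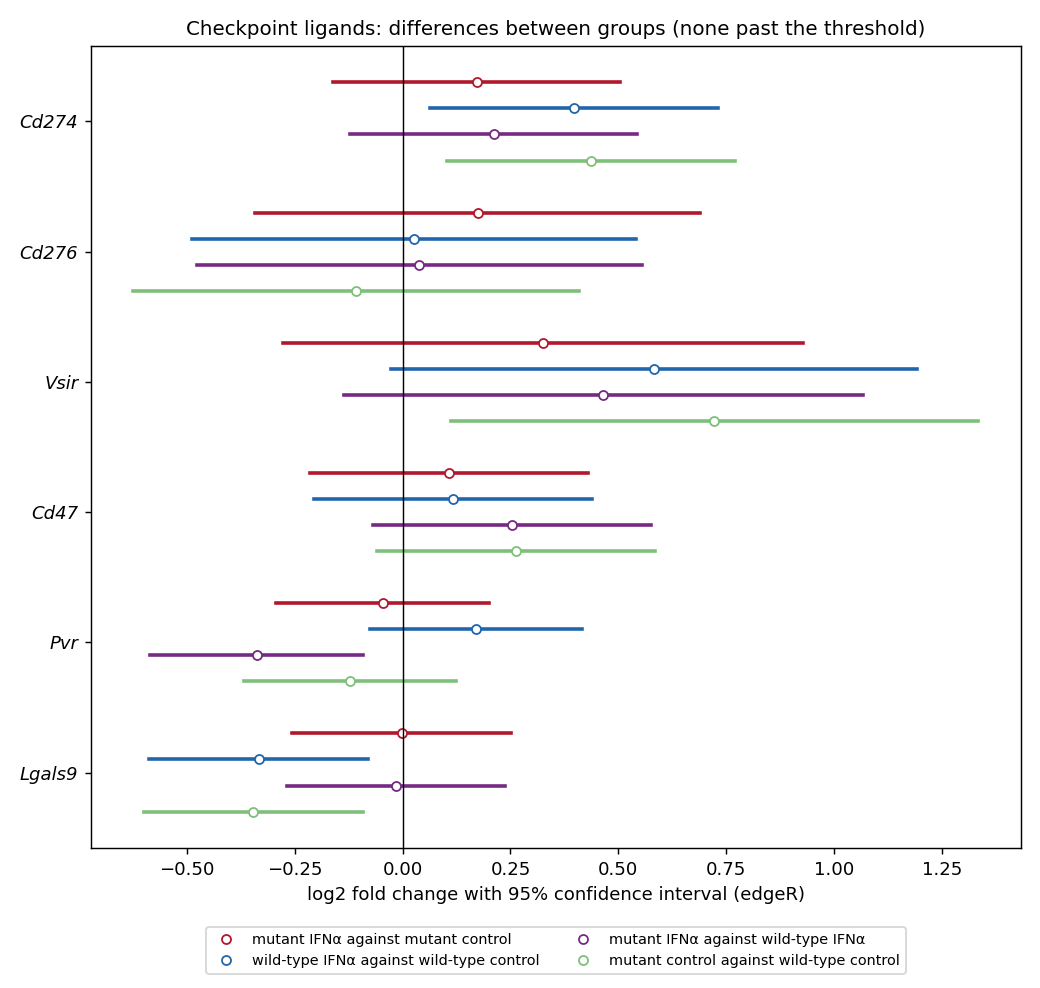
Log2 fold changes from edgeR (open points, adjusted p above 0.05) with 95% confidence intervals (lines) for 6 checkpoint ligand genes in 4 comparisons, 3 libraries per group. Intervals that leave out 0 are those of Cd274 and Lgals9 for IFNα in the wild type and between the controls, Vsir between the controls and Pvr between the IFNα groups, and none passed adjustment.

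The partners of these ligands were read from the same libraries, where edgeR called 0 of the 10 genes of the receptor list it tested in any of the 7 comparisons. DESeq2, which tested 5 to 14 of the list depending on the comparison, and limma, which tested 4, also called 0. In edgeR 1 to 3 of the 10 had an unadjusted p under 0.05 per comparison, against 5.17% to 18.1% of all genes. Sirpa, the receptor of CD47, averaged 11.9 FPKM (9.82 to 16.7), above the mean of Cd47 on the same per-length scale. Ltbr, the lymphotoxin beta receptor, was the highest of the list at 31.1 FPKM. Of the lymphocyte receptors named, Havcr2 (TIM-3) was the highest, at 0.797 FPKM on average (0.494 to 1.13), and was at 0 in no library. Btla averaged 0.1002 FPKM, Pdcd1 (PD-1) 0.0625 and Cd160 0.0332. Cd96 (0.0111 FPKM), Ctla4 (0.00552), Cd226 (0.00453) and Tigit (0.00323, 3 counts in all) did not pass the filter. Thus most receptors of T cells and natural killer cells on the list averaged below 1 FPKM, and Pvr stood above each of its 3 receptors in every library.

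**Figure D4:**
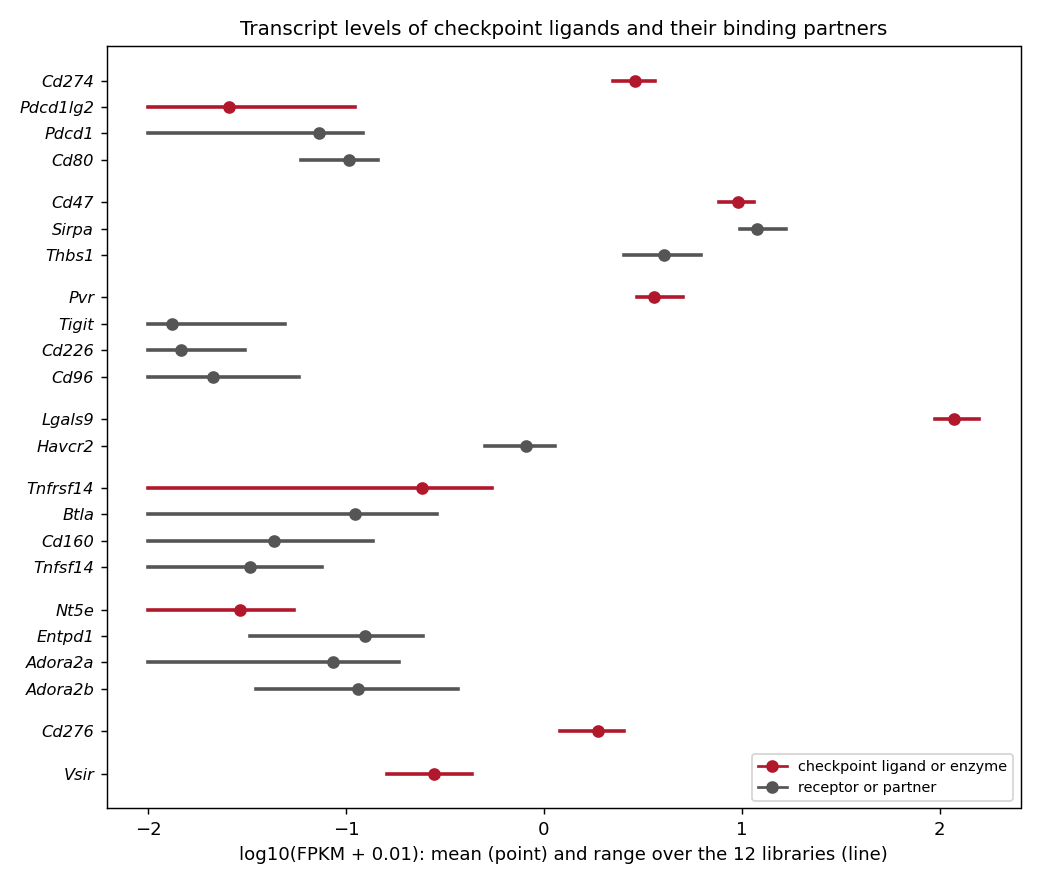
Mean (point) and range (line) of log10(FPKM + 0.01) over the 12 libraries for checkpoint ligand genes (red) and their binding partners (grey), grouped by pathway. Lgals9, Cd47, Pvr and Cd274 lie above 2 FPKM in every library, while Pdcd1, Tigit, Cd226, Cd96, Btla and Cd160 lie below 0.3 FPKM.

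Of 36 genes known to regulate PD-L1 or CD47, all tested, 1 to 8 had an unadjusted p under 0.05 per comparison in edgeR. The share over all genes was 5.17% to 18.1%. With IFNα in the wild type edgeR called 1 of the 36, against 0.0227% of all genes. That gene was Irf1, an interferon-induced activator of the PD-L1 gene. It measured 16.6, 17.5 and 16.8 FPKM in mutant IFNα, 11.2, 9.70 and 10.5 in mutant control, 15.9, 12.4 and 12.8 in wild-type IFNα and 7.58, 8.18 and 9.08 in wild-type control. IFNα and control libraries were separate in each line. Over all genes, these groups did not overlap in CPM for 17.7% in the mutant and 12% in the wild type. Irf1 rose with IFNα in the wild type by 0.71 ± 0.0984 (log2, SE; adjusted p = 0.0202), and its difference in the mutant was 0.68 ± 0.0982 (adjusted p = 0.0655). For IFNα over both lines edgeR also called Irf1 (adjusted p = 0.00171), against 0.171% of all genes. DESeq2 called Irf1 for IFNα in each line and over both lines, and limma for IFNα over both lines only. Socs1, an interferon-induced inhibitor of JAK kinases, averaged 3.00 FPKM and was called by DESeq2 for IFNα in the mutant and by DESeq2 and limma for IFNα over both lines. In edgeR its IFNα difference was 0.87 ± 0.214 in the mutant and 0.72 ± 0.212 in the wild type, and 0.79 ± 0.151 over both lines (adjusted p = 0.0561). The groups of Socs1 were separate in each line, beside the same 17.7% and 12% of all genes. Averaged over treatments Irf1 was higher in the mutant by 0.43 ± 0.0693 (adjusted p = 0.00583), the same side as Cd274. Jak1, the kinase that both the type I and type II interferon receptors use, was lower in the mutant over both treatments, at a log2 fold change of -0.33 ± 0.0841 (adjusted p = 0.0497). In that comparison edgeR called 2.8% of all genes. DESeq2 called Irf1 and Jak1 there too (7.29% of its genes) and between the IFNα groups (4.02%), and Irf1 between the controls (1.26%). For the mutant over both treatments DESeq2 also called the transcription factor Stat3, for which edgeR gave -0.33 ± 0.0896 (adjusted p = 0.0656). Cmtm6, which stabilizes PD-L1 at the cell surface, averaged 1.96 FPKM and differed with IFNα by 0.39 ± 0.208 and 0.29 ± 0.207 in the mutant and the wild type, with no call. Qpctl, the enzyme that modifies CD47 for SIRPα binding, averaged 1.19 FPKM and had no call. The ubiquitin ligase Stub1 (111 FPKM) and Cops5 (46.9 FPKM), which act on PD-L1 stability, were the most abundant of the list and were not called. Of the 36, 26 had a positive IFNα estimate in the mutant and 24 in the wild type. Their medians were 0.11 and 0.080, beside -0.0072 and 0.016 over all genes.

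The genes around Cd274 on chromosome 19 held no edgeR call among 10 tested neighbors in the 7 comparisons, and no limma call among the 6 it tested. In edgeR 0 to 2 of the 10 neighbors had an unadjusted p under 0.05 per comparison, against 5.17% to 18.1% of all genes. DESeq2 called 1, Ermp1, between the IFNα groups. Jak2, the kinase gene upstream of Cd274, averaged 0.333 FPKM and differed with IFNα by 0.15 ± 0.285 in the mutant and -0.24 ± 0.284 in the wild type. Plgrkt, at 10.8 FPKM, differed by -0.12 ± 0.147 in the mutant and 0.044 ± 0.147 in the wild type. Ric1 differed by 0.37 ± 0.183 in the mutant and -0.13 ± 0.182 in the wild type, and Ermp1 by 0.11 ± 0.152 and 0.55 ± 0.151 (adjusted p = 0.547 in the wild type). The melanocyte gene Mlana (968 FPKM) and Rcl1 (16.3 FPKM) were the highest of these neighbors, with IFNα differences of -0.13 and 0.045 in the mutant and -0.12 and -0.031 in the wild type. Of the 10 neighbors, 7 had a positive IFNα estimate in the mutant and 4 in the wild type. Their medians were 0.075 and -0.076, beside -0.0072 and 0.016 over all genes. Cd274 was positive in both lines, and so was its neighbor Ermp1.

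**Figure D5:**
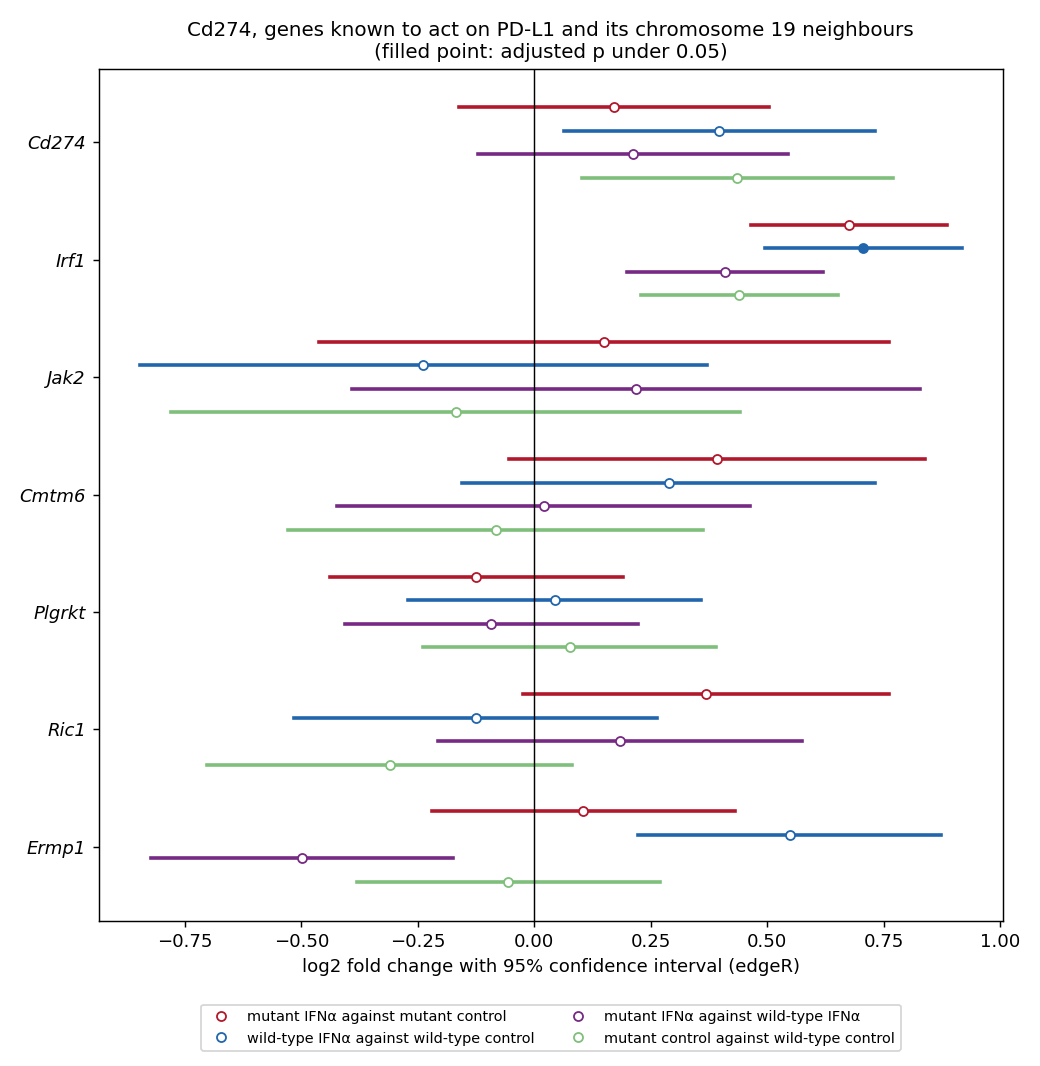
Log2 fold changes from edgeR with 95% confidence intervals for Cd274, regulators of PD-L1 and chromosome 19 neighbors in 4 comparisons, with 3 libraries per group; filled points have an adjusted p under 0.05. The filled point is Irf1 for IFNα in the wild type, at 0.71.

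A list of 16 genes held relatives of the B7, nectin and galectin families and genes outside them, such as Hmgb1 and Fgl1. Of the 16, 15 were tested and edgeR called 0 in the 7 comparisons. Per comparison 1 to 4 had an unadjusted p under 0.05, against 5.17% to 18.1% of all genes. DESeq2 called Lgals3 in 4 comparisons and Hmgb1 in 2, and limma, which tested 5 of them, called Hmgb1 in 1. Lgals1 (3539 FPKM) and Lgals3 (520 FPKM), which encode galectin-1 and galectin-3, were the highest and far exceeded Lgals9. Lgals3 differed with IFNα by -0.28 ± 0.133 in the mutant and -0.52 ± 0.133 in the wild type (adjusted p = 0.486 and 0.441). The costimulatory genes Cd80 (0.0939 FPKM) and Cd86 (0.0834 FPKM) were low. Of the TNF superfamily ligands, 2 of 6 in the table were tested by edgeR, which called 0. Per comparison 0 or 1 of the 2 had an unadjusted p under 0.05, against 5.17% to 18.1% of all genes. DESeq2 and limma also called 0 of those they tested (2 to 6 and 1). The 2 were Tnfsf9 (4-1BB ligand) at 4.62 FPKM and Tnfsf10 (TRAIL) at 0.400 FPKM. Beside the low Nt5e, 11 of 14 adenosine pathway genes were tested. Entpd1, which encodes CD39 and makes the AMP that CD73 uses, averaged 0.115 FPKM, and Entpd2, which acts on extracellular ATP, 11.4 FPKM. Slc29a1, an equilibrative nucleoside transporter, was the 1 gene edgeR called: it rose with IFNα over both lines by 0.42 ± 0.0727 (adjusted p = 0.0356). There edgeR called 0.171% of all genes. Per comparison 0 or 1 of the 11 had an unadjusted p under 0.05, against 5.17% to 18.1% of all genes. DESeq2 called Slc29a1 for IFNα in the mutant (0.952% of its genes), in the wild type (0.387%) and over both lines (2.11%). Slc29a1 measured 12.6, 12.5 and 12.7 FPKM in mutant IFNα, 9.80, 8.51 and 9.19 in mutant control, 15.4, 12.7 and 13.4 in wild-type IFNα and 8.76, 10.3 and 11.7 in wild-type control. The IFNα libraries were above the controls in each line. Over all genes, these groups did not overlap in CPM for 17.7% in the mutant and 12% in the wild type.

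The marker lists were set beside these results. The 1 gene edgeR called was Laptm5, a lysosomal gene of hematopoietic cells, which was higher in the mutant by 0.42 ± 0.104 over both treatments (adjusted p = 0.0476). In that comparison edgeR called 2.8% of all genes. Of 11 leukocyte markers tested, 10 were on the higher side in mutant control against wild-type control, where the median was 0.47 and 6 had an unadjusted p under 0.05 (10.7% of all genes). For the mutant over both treatments 10 of 11 were also on the higher side, with a median of 0.42 and 8 at an unadjusted p under 0.05 (18.1% of all genes). DESeq2 called Laptm5 and the macrophage gene Adgre1 in that comparison and Csf1r, the receptor of a macrophage growth factor, between the IFNα groups. These are the comparisons in which Cd274 and Vsir were on the higher side in the mutant, and the part of leukocyte transcripts in that was not tested. With IFNα, 4 of the 11 leukocyte markers were on the higher side in the mutant and 3 in the wild type. Their medians there were -0.24 and -0.22, whereas Cd274 and Vsir had positive IFNα estimates in both lines. All 7 melanocyte genes were on the lower side in the mutant, with a median of -0.16 between the controls and of -0.19 over both treatments. Between the controls 0 of the 7 had an unadjusted p under 0.05 (10.7% of all genes), and over both treatments 4 did (18.1%). Between the IFNα groups 6 of 7 were lower, with a median of -0.32, and 4 of the 7 had an unadjusted p under 0.05 (13.7% of all genes). edgeR and limma called 0 of the 7, and DESeq2 called Tyr, the melanin-forming tyrosinase, between the IFNα groups and over both treatments. All 4 fibroblast markers tested were on the higher side in mutant control against wild-type control, 3 at an unadjusted p under 0.05 (10.7% of all genes). The 5 listed fibroblast markers, with 1 not tested, summed to 26.5 to 58.7 CPM in mutant control against 24.1 to 25.1 CPM in wild-type control. edgeR called 0 of the 7 lung, 4 endothelial and 4 fibroblast markers it tested. DESeq2 called 0 of the 4 or 5 lung, 2 to 4 endothelial and 2 to 4 fibroblast markers it tested, and limma 0 of 5 lung markers and 1 fibroblast marker, with no endothelial marker tested.

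Genes whose pattern was most like that of Cd274 were ranked by Pearson correlation of log2(FPKM + 1) over the 12 libraries, among 4766 genes with a mean of at least 5 FPKM. The highest were Taco1 (r = 0.83), a mitochondrial translation factor, Cdc45 (r = 0.80), a DNA replication factor, Gbp3 (r = 0.79), an interferon-induced GTPase, Mis18a (r = 0.78), a centromere factor, and Poglut2 (r = 0.78), a glycosyltransferase. The lowest were Procr (r = -0.77), the protein C receptor, Vps25 (r = -0.71), an endosomal sorting subunit, and Cda (r = -0.70), cytidine deaminase. These values describe the libraries, which share groups and lung content, and were picked as extremes of many, so no p is given.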

How the data were processed

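RNA of B16F10 cells was sequenced in 12 libraries, 3 in each of 4 groups taken from the titles of the samples. StringTie 1.3.4d, HISAT2 2.0.4, cutadapt 1.9, UMI-tools, edgeR and DESeq2 and the build GRCm38 stand in the submitters' processing notes, with no role or order. How reads were counted, by strand or not, and deduplicated is not given in the sources used here. How reads in the overlap of genes of opposite strands were assigned is thus not known. A single table was deposited by the authors, with a count and an FPKM per gene and library, per the file headers. The deposited counts are whole numbers, and how they were derived from reads is not stated. Of those between 1 and 30, 33.6% were multiples of 4, so a count is not 1 fragment. edgeR and DESeq2 took them as counts, and the effect of this on their p-values was not tested. FPKM as deposited are scaled for length and library size. Gene starts in the table are mostly not those of GRCm38, so its coordinates are given as deposited and kept apart from the RefSeq promoter coordinates.

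Counts were tested with edgeR 4.0.16 in R 4.3.3 (TMM, default filter with a count minimum of 10, quasi-likelihood test, two-sided) in 1 fit of 4 group means over 12 libraries, with Benjamini-Hochberg adjustment over 17590 genes and a threshold of 0.05. Each SE was the absolute log2 fold change divided by the square root of the F statistic of the quasi-likelihood test. The 95% intervals were built from that SE. The code was tested on simulated data. Alternatives were DESeq2 1.42.0, other scalings and filters, limma 3.58.1 on log2(FPKM + 1) or log2(FPKM + 0.1), a replicate block, lung transcripts as a term or limit (summed CPM of 7 markers above 1) and leaving out each library. The 9 members, the gene lists and the tests were chosen with earlier results of these data known. Named are all members, and of each list the called genes, the 2 of highest mean FPKM and a fixed few (PD-1, TIM-3, TIGIT and other receptors; Irf1, Jak2, Cmtm6, Qpctl; Plgrkt, Ric1, Ermp1). 1 further gene of this rule is not reported here. The 5 genes most like and the 3 least like Cd274 were added. Other genes, such as A930007I19Rik, Cd80, Cd86, Hmgb1, Entpd1, Tyr, Socs1, Stat3, Adgre1, Csf1r, the plotted Thbs1, Tnfsf14, Adora2a and Adora2b and the markers Lyz2, Cd68, Ptprc, Cd3e and Sftpc, were named after their values were seen.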

Additional observations from a re-analysis of the deposited data

Results flagged for a closer look

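Pdcd1lg2, which the filter on low counts left out of the tests, had counts in IFNα libraries and in no control library. Its highest count was 15, in wild-type IFNα 3, beside 9 in mutant IFNα 2 and 4 in wild-type IFNα 1. With no filter its unadjusted p for IFNα over both lines was 0.0198 and its adjusted p 0.539 (edgeR), so the difference was not shown.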

How the results depend on the processing

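The count of ligand genes called was 0 in every comparison under every setting tried, except that it was 1 (Cd47, log2 fold change 0.39) for the mutant over both treatments without mutant IFNα 3 and wild-type control 1, a choice made after seeing the data; the cause was not tested. Over 42 log2 fold changes of 6 ligand genes and 25 alternatives, 927 of 990 values kept their sign and side of the threshold and 62 changed sign. For Lgals9 with IFNα in the mutant (-0.002), the value was 0.0058 in DESeq2, 0.0011 with its size factors, 0.034 with library totals, 0.0171 and 0.0173 in limma (pseudocount 1 and 0.1), 0.012 with no filter, 0.0005 with only the groups compared, 0.048 with a term for lung-holding libraries and 0.20 in those libraries alone. Between the IFNα groups Lgals9 gave 0.035 with that term and 0.19 in lung-holding libraries. For Cd47 the interaction gave 0.007 in DESeq2, 0.0013 with its size factors, 0.0026 with library totals, 0.0044 with no filter, 0.20 with the lung term and 0.15 in lung-holding libraries. In lung-holding libraries Cd47 gave -0.0475 and -0.20 for IFNα in the mutant and the wild type, -0.12 over both lines and -0.058 between the controls. For Cd276 between the IFNα groups the value was -0.044 with library totals, -0.0605 and -0.10 in limma (pseudocount 1 and 0.1), -0.042 with the lung term and -0.084 without the 2 libraries. Without those 2, Cd276 gave -0.16 for IFNα in the wild type and -0.055 over both lines. In lung-holding libraries Cd276 gave 0.31 for the mutant over both treatments, 0.37 between the controls and -0.11 in the interaction, which was -0.033 with the lung term. Vsir gave 0.23 and 0.24 in the interaction in lung-holding libraries and with the lung term.

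Leaving out 1 library at a time, sign changes occurred within these ranges. Lgals9 ran from -0.12 to 0.062 for IFNα in the mutant and -0.13 to 0.043 between the IFNα groups, and Pvr from -0.094 to 0.0016 for IFNα in the mutant. Cd276 ran from -0.16 to 0.19 for IFNα in the wild type, -0.30 to 0.041 between the controls, -0.13 to 0.29 between the IFNα groups, -0.021 to 0.40 in the interaction and -0.13 to 0.091 for the mutant over both treatments. Cd47 ran from -0.011 to 0.31 for IFNα in the wild type and -0.20 to 0.13 in the interaction.

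Departures from the group mean, over genes averaging 1000 counts or more, were correlated between libraries of different groups. Same-numbered libraries correlated from -0.46 to 0.34, over 0.1 in 9 of 18 pairs. Differently numbered libraries ran from -0.51 to 0.70, over 0.1 in 14 of 36 pairs. These ranges overlap, so pairing by number was neither shown nor excluded. A replicate block called 0 ligand genes, and over all genes 314 for the mutant over both treatments against 493 without it. Over all genes DESeq2 called 1224 there and 175 against 1 for IFNα in the mutant. In the comparisons of mutant with wild type the median of all genes was -0.088 to -0.092 with library totals and -0.11 in limma with a pseudocount of 0.1, beside -0.014 to 0.0049 in the reported fit. An FPKM minimum of 5 left Lgals9 and Cd47 alone.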
